A study of Oryza sativa with 6 samples.

Results

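The small molecule glucosyltransferases of rice were taken as the genes whose product text in the array annotation names a glucosyltransferase, a UDP-glucuronosyl or UDP-glycosyl transferase or a cytokinin or zeatin O-glucosyltransferase. The search left out Os02g0755900 and the synthases of callose, cellulose, starch and trehalose. It found 148 genes with 178 probe sets, of 34896 genes and 57258 probe sets in all, and the probe set of highest mean signal stood for each gene. The label held for most of the set, but 7 of the 148 genes are described as enzymes that glucosylate proteins or lipids (glycoprotein, dolichyl, ceramide and sterol types). Product names in this annotation are putative, assigned by similarity, and do not show which acceptor an enzyme uses in rice.

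Plant glucosyltransferases move glucose from UDP-glucose onto hormones, flavonoids, other phenolics and foreign compounds. The sugar makes the acceptor more soluble, often silences its activity, and can mark it for storage in the vacuole, from which beta-glucosidases can release it again. Cytokinins and auxin are stored and inactivated in this way, and in roots glucosylation also acts on phenolics and defence compounds. Genes of this family often lie side by side as tandem copies.

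RNA of root tips (0 to 1 cm) of a Japonica rice was measured on 6 Affymetrix Rice Genome arrays. Per the protocol given for both groups, seedlings were grown on 0.5 mM CaCl2 and were 5 d old. The before-Al group held 3 arrays, and the after-Al group held 3 arrays of seedlings kept for 6 h in 0.5 mM CaCl2 with 50 µM aluminium (Al) at pH 4.5. No genotype or treatment other than Al is labelled, and the solution is common to both groups. The labels call the repeats biological without saying what was repeated, so each p-value sets a change against the spread among these 6 arrays alone. A 6 h control without Al was not analysed here and the labels state a pH for the Al solution alone, so effects of Al, time and pH cannot be told apart.

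Every array had nearly the same number of probe sets called present, from 24836 to 25492. As a check of the labels, the Al tolerance genes STAR1 (LOC_Os06g48060) and Nrat1 (LOC_Os02g03900) rose by 1.86 ± 0.06 and 0.97 ± 0.05 (log2 change, SE) after Al. All 4 root tip markers were present on all 6 arrays, and OsPIN2 and OsSCR1 fell by 0.35 and 0.93 on the log2 scale while OsSHR1 and QHB, at log2 changes of -0.08 and 0.21, did not pass. The mature root marker Lsi1 had a log2 change of -0.31 that did not pass (adjusted p = 0.0509), with all arrays after Al below those before it. The summed linear signal of the 4 markers was 3679 to 4047 before Al and 2877 to 3368 after it. Of 37 photosynthesis genes, markers of green tissue, 12 were present on no array and 16 were tested. Of these 16, 1 rose and 4 fell (6.25% and 25.0%, beside 14.3% and 15.9% of all tested probe sets). The summed linear signal of the list was 3172 to 3514 before Al and 2613 to 2999 after it. The part of these shifts in the changes below was not tested, and in RNA of whole tips a smaller number of cells of a type and less RNA per cell cannot be told apart.

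Most of the glucosyltransferase genes gave no signal that could be tested. Of the 148 genes, 65 were called present on no array (43.9%, against 41.3% of all genes), 14 on 1 or 2 arrays and 51 on all 6. A gene was tested when its probe set was present on at least 3 of the 6 arrays, which left 69 genes, and none of these was absent from every array of a group. The 79 untested genes are not shown to be silent, since a probe set that is not called present gives no usable level.

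Among the 69 tested genes, 16 rose and 11 fell after Al (limma, adjusted p under 0.05 over all 25283 tested probe sets). These counts are 23.2% and 15.9% of the tested genes, beside 14.3% higher and 15.9% lower (30.2% in either direction) among all tested probe sets. Counted by gene, as the members are, 16.2% of 18041 tested genes were higher and 17.8% lower. The shares of all tested probe sets given below are not counted by gene, and the share of risers is lower in them than by gene. At least 2-fold, 8 genes rose and 3 fell, which is 11.6% and 4.35% of the tested genes beside 4.55% and 2.52% of all. The median log2 change of the tested genes was -0.01, with quartiles at -0.28 and 0.35, beside a median of -0.04 and quartiles at -0.27 and 0.17 over all tested probe sets. The other 42 of the 69 genes did not pass the test. A gene that passes the filter can do so through the group where it is high, so the counts were also taken without the filter, where 14 of all 148 genes rose (9.46%, beside 5.6% of all probe sets) and 11 fell (7.43%, beside 5.94%). With presence on all 6 arrays required, 13 of 51 rose and 10 fell, beside 14.7% and 17.9% of all probe sets so filtered.

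The groups did not overlap in any of the 27 genes that passed. The test and this separation use the same signals, so the separation is no added support for these calls. Counted over the 69 tested genes, the 3 arrays after Al all lay above those before it in 24 and all below in 17, beside 19.6% and 24.1% of all tested probe sets. All 4 changes of at least 4-fold were rises, beside 1.64% of all tested probe sets with such a rise and 0.328% with such a fall. The largest fall was 2.19-fold.

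**Figure D1:**
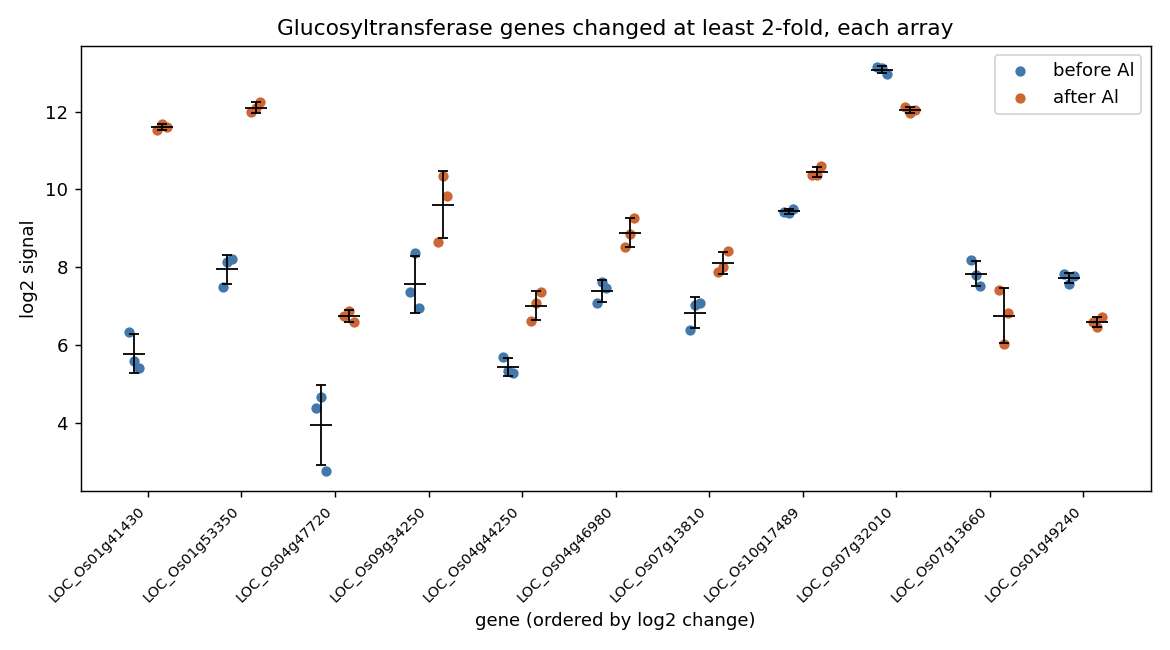
Log2 signal (vertical axis) on each array for the 11 glucosyltransferase genes that passed the test with a change of at least 2-fold, ordered from the largest rise to the largest fall. Points are arrays (3 before Al, 3 after Al), the black bars are mean and SD, and the groups do not overlap in any of the 11 genes.

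Glucosyltransferases named for flavonoids and anthocyanidins, which are phenolic pigments and antioxidants, held the largest rises of the set. Of 44 such genes, 24 were tested, 3 rose and 5 fell (12.5% and 20.8%, beside 14.3% and 15.9% of all tested probe sets), and their median log2 change was -0.16. LOC_Os01g41430, described as a flavonol-3-O-glycoside-7-O-glucosyltransferase that would add glucose to a flavonol already carrying a sugar, lies on chromosome 1 at 23782921 to 23784883. Its log2 signals were 6.35, 5.59 and 5.42 on the 3 arrays before Al and 11.51, 11.67 and 11.60 on those after it. The 3 arrays after Al were close together and far above the others. The fold between the group means was 56.1 (log2 change 5.81, 95% interval 5.34 to 6.28, limma adjusted p = 7.32e-08), and it rested on a single unshared probe set that was present on all 6 arrays.

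LOC_Os01g53350 (chromosome 1, 30982151 to 30984017), described as an anthocyanidin 5,3-O-glucosyltransferase, had the next largest rise. Its log2 signals were 7.51, 8.13 and 8.20 before Al and 11.98, 12.08 and 12.25 after it. The spread among arrays of a group was small beside the distance between the groups, and the gene rose 17.8-fold (log2 change 4.16, 95% interval 3.79 to 4.53, adjusted p = 1.54e-07). The only other rise of this class was small, with LOC_Os02g37690, an anthocyanidin 3-O-glucosyltransferase type, higher by 0.41 ± 0.12. That call was lost without the first or the third array before Al or the first after it, and it was read from a shared probe set, one that can also measure similar transcripts.

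The falls of the flavonoid and anthocyanidin class were moderate. LOC_Os07g32010 (chromosome 7, 19036154 to 19037919), an anthocyanidin 5,3-O-glucosyltransferase type, had log2 signals of 13.14, 13.11 and 12.97 before Al and 12.12, 11.97 and 12.03 after it. Both groups were tight, and the gene fell 2.05-fold (log2 change -1.03 ± 0.06, SE, adjusted p = 2.12e-06). LOC_Os06g08830, which carries the same flavonol product name as the top riser LOC_Os01g41430, went the other way: its log2 signals were 9.68, 9.50 and 9.49 before Al and 8.56, 8.69 and 8.82 after it, a change of -0.87 ± 0.10. LOC_Os07g31960, LOC_Os11g27370 and LOC_Os01g50200 fell by 0.61, 0.58 and 0.57 on the log2 scale, and after Al LOC_Os11g27370 had a present call on 1 array. A single product name thus covered genes with opposite changes.

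Cytokinin and zeatin glucosyltransferases, which conjugate the hormones that promote cell division rose in 9 cases. Of 51 genes, 22 were tested, so 40.9% rose, and 1 fell (4.55%), beside 14.3% and 15.9% of all tested probe sets. Rises of at least 2-fold were 5 (22.7%, beside 4.55% of all), and the median log2 change was 0.29. Split by type, with the same 14.3% and 15.9% as background, each count rests on 3 to 6 tested genes. The cytokinin N type, whose glucosides are thought of as permanently inactive, had 3 higher and 1 lower of 6 tested. The cytokinin O types, whose glucosides can be turned back into active hormone, were split in the annotation into 1, 2 and 3: type 1 had 0 of 3 tested higher, type 2 had 2 of 6 and type 3 had 2 of 4, with 0 lower in each. In the zeatin group 2 of 3 tested genes rose. The class was not tested against other classes.

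Both risers of the zeatin group are described as cis-zeatin O-glucosyltransferases, enzymes that act on the cis form of zeatin, which is abundant in rice. LOC_Os04g46980 (chromosome 4, 27629495 to 27632429), described as cis-zeatin O-glucosyltransferase 1, had log2 signals of 7.08, 7.63 and 7.48 before Al and 8.53, 8.86 and 9.27 after it. All arrays after Al were higher, and the fold was 2.80 (log2 change 1.49 ± 0.20, SE, adjusted p = 0.000419). The probe set is marked as shared. The second probe set of the gene, which is unshared, rose by 1.40 on the log2 scale, with present calls on 1 array before Al and 3 after it. That second probe set met the filter through the after-Al group, where it is high, so the size of its rise is uncertain.

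LOC_Os04g47720 (chromosome 4, 28095968 to 28097718) had log2 signals of 4.39, 4.67 and 2.77 before Al, where 1 of the 3 arrays was called present, and 6.75, 6.89 and 6.60 after it, where all were. The arrays before Al were spread more widely than those after it. The log2 change was 2.80 ± 0.47 (SE, 95% interval 1.75 to 3.86, adjusted p = 0.00142), and 2.22 without the third array before Al. The third signal before Al was under the lowest signal called present on that array (2.98). Arrays not called present give no usable level, so the size of the rise is uncertain. LOC_Os04g47720 met the filter through the after-Al group, where it is high.

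The other rises of the cytokinin group were between 0.51 and 1.58 on the log2 scale. LOC_Os04g44250, of the O-glucosyltransferase 3 type, had log2 signals of 5.70, 5.35 and 5.28 before Al and 6.62, 7.07 and 7.36 after it, and rose by 1.58 ± 0.25. LOC_Os10g17489 (chromosome 10, 8483905 to 8496358), of the O-glucosyltransferase 2 type, had 9.42, 9.39 and 9.51 before Al and 10.37, 10.38 and 10.60 after it, a rise of 1.01 ± 0.09. The groups were tight and separate in LOC_Os10g17489, and wider in LOC_Os04g44250. LOC_Os11g25730, of the N type, rose by 0.96 ± 0.13 from signals of 7.36, 7.29 and 7.40 to 8.29, 8.48 and 8.16. LOC_Os02g36840 and LOC_Os04g44240 rose by 0.61 ± 0.19 and 0.51 ± 0.14, but both calls were lost in several alternatives, among them leaving out the second array after Al (log2 changes of 0.59 and 0.37).

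**Figure D2:**
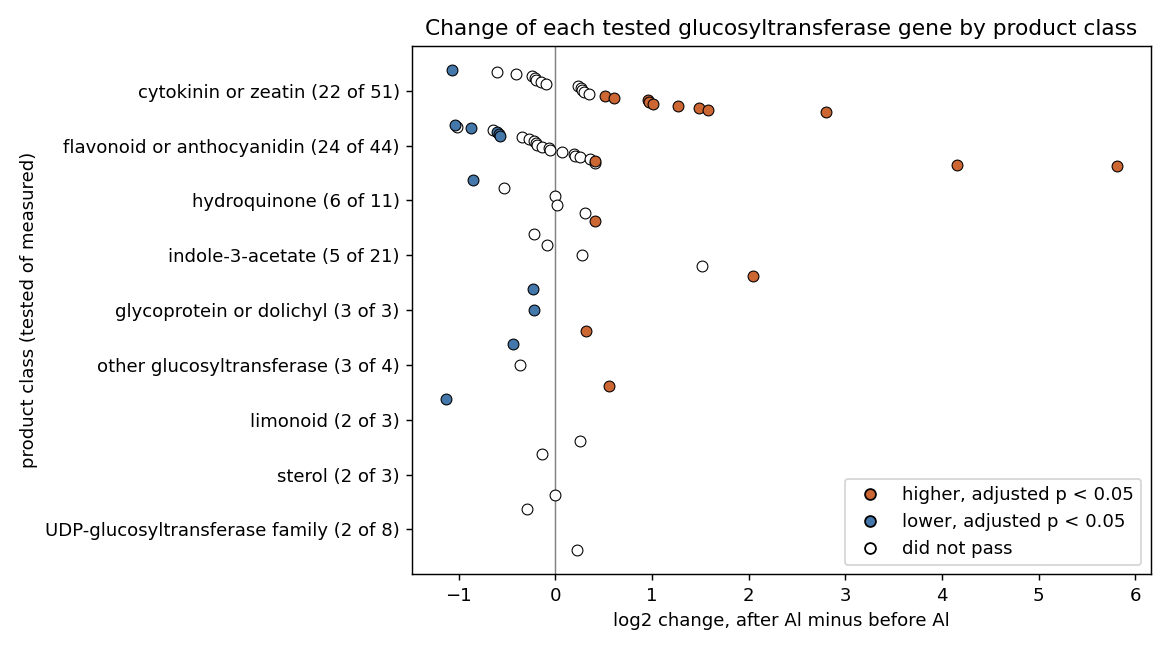
Log2 change, after minus before Al (horizontal axis), of each of the 69 tested genes by product class (vertical axis, tested of measured genes in parentheses). Orange and blue points passed the test as higher and lower and white points did not pass. The cytokinin or zeatin row holds 9 orange points and 1 blue one, while the flavonoid or anthocyanidin row holds the largest changes, 5.81 and 4.16, and otherwise lies near or below 0.

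Indole-3-acetate glucosyltransferases, which by name attach glucose to auxin, were mostly not detected. Of 21 genes, 5 were tested (23.8%, beside 51.7% of all genes) and 12 were present on no array (beside 41.3% of all genes). LOC_Os09g34250 (chromosome 9, 20221694 to 20223511) had log2 signals of 7.38, 8.38 and 6.95 before Al and 8.66, 10.35 and 9.82 after it. The lowest array after Al was just above the highest before it, and within each group the arrays were far apart. It rose by 2.04 ± 0.44 (SE, 95% interval 1.06 to 3.02, adjusted p = 0.00582), and by 1.67 to 2.52 with any 1 array left out. LOC_Os04g12980 had a log2 change of 1.52 that did not pass (adjusted p = 0.104, 95% interval 0.10 to 2.94), with 2 of 3 arrays called present in each group. The 3 other tested genes of the type did not pass, with log2 changes of -0.22 to 0.28.

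Hydroquinone glucosyltransferases, named for an enzyme that makes arbutin-like phenolic glucosides, had 6 of 11 genes tested. Of these, 1 was higher and 1 lower (16.7% each), near the 14.3% and 15.9% of all tested probe sets. LOC_Os11g38650 had log2 signals of 10.55, 10.48 and 10.43 before Al and 10.83, 10.97 and 10.89 after it, a rise of 0.41 ± 0.07. LOC_Os01g43280 fell by 0.86 on the log2 scale, from 7.15, 6.94 and 7.20 to 6.25, 6.11 and 6.35. Groups were separate in both genes. Limonoids are bitter triterpenes of citrus, and of 3 genes named for their glucosylation 2 were tested. LOC_Os01g49240 (chromosome 1, 28634499 to 28636348) of this type had signals of 7.82, 7.57 and 7.77 before Al and 6.59, 6.46 and 6.72 after it, and its log2 change of -1.13 ± 0.16 was the largest fall of the set.

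The changes of the enzymes that act on proteins and lipids were small in size. Of the 3 glycoprotein and dolichyl genes, all tested, 1 rose and 2 fell (33.3% and 66.7%, beside 14.3% and 15.9% of all tested probe sets). LOC_Os02g44510, the UDP-glucose glycoprotein glucosyltransferase that tags misfolded glycoproteins in the endoplasmic reticulum, fell by 0.22 on the log2 scale, from 12.23, 12.25 and 12.12 to 12.07, 11.96 and 11.90, a call lost in 6 of 14 alternatives (adjusted p of 0.0153 to 0.103). LOC_Os02g46320, a dolichyl pyrophosphate glucosyltransferase that builds the sugar chain for protein N-glycosylation, fell by 0.23 and LOC_Os01g67870, a ceramide glucosyltransferase that makes the sphingolipid glucosylceramide, fell by 0.44. LOC_Os03g60700, which makes the dolichyl-phosphate glucose donor of the same chain, rose by 0.31 on its shared probe set, while its unshared probe sets did not pass (0.25 and 0.18). Of the 3 sterol glucosyltransferases, which make membrane sterol glucosides, 2 were tested, with log2 changes of -0.01 and -0.14 that did not pass. The 2 tested genes with only the family name UDP-glucosyltransferase did not pass either.

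Glucosyltransferase genes often lay side by side. By the alignments in the deposited annotation, for which no source used here names the genome build, 84 of the 148 genes fell into 28 clusters with at most 100 kb between neighbours, and 13 clusters held at least 3 genes. Of the 41 tested genes in clusters, 9 rose and 5 fell (21.95% and 12.2%), and of the 28 outside them 7 rose and 6 fell (25.0% and 21.4%), beside 14.3% and 15.9% of all tested probe sets. In 1 of the 10 clusters with at least 2 tested genes, some genes rose and others fell. The 4 clusters with at least 3 tested genes are given here, and the same 14.3% and 15.9% stand beside their counts. The 3 on chromosomes 4 and 7 were chosen after their values were seen, so their counts do not describe the clusters in general.

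On chromosome 1, between 30974359 and 31040692, 7 genes of the anthocyanidin 5,3-O-glucosyltransferase type lie within 66.3 kb. Of the 6 tested, LOC_Os01g53350, with its 17.8-fold rise, was the one that passed. Its nearest tested neighbour LOC_Os01g53370 had log2 signals of 5.30, 5.53 and 4.59 before Al and 5.28, 5.82 and 5.56 after it, a change of 0.41 with a 95% interval of -0.34 to 1.16. These values come from a shared probe set, and the unshared probe set of LOC_Os01g53370 was present on no array and gives no usable level. LOC_Os01g53390, LOC_Os01g53420, LOC_Os01g53430 and LOC_Os01g53460 had log2 changes of 0.25, 0.20, -0.07 and -0.14, and the highest upper bound among their 95% intervals was 0.96. These intervals do not reach that of LOC_Os01g53350, which began at 3.79, although the difference between genes was not tested. LOC_Os01g53330, at the other side of LOC_Os01g53350, was present on no array.

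On chromosome 7, between 7813745 and 7968716, 7 genes hold 6 of the cytokinin N type and 1 of the O type, and of the 5 tested 2 rose and 1 fell. LOC_Os07g13810 had log2 signals of 6.38, 7.04 and 7.10 before Al and 7.88, 8.02 and 8.42 after it, and rose by 1.27 ± 0.22. Its second, shared probe set had a log2 change of 0.71 that did not pass (adjusted p = 0.0882). Its neighbour LOC_Os07g13800, at 5.99, 6.28 and 5.14 before Al and 6.80, 6.88 and 6.65 after it, rose by 0.97 ± 0.30, a call lost without the first or the third array before Al or any 1 array after it (log2 change 0.64 without the third before Al). LOC_Os07g13660, at 8.18, 7.82 and 7.52 before Al and 7.42, 6.03 and 6.83 after it, fell by 1.08 on the log2 scale. The call for LOC_Os07g13660 was lost without the second or the third array after Al or the first or the second before it, its change ran from -1.40 to -0.71 with 1 array left out, and its probe set is marked as shared. The unshared probe set of LOC_Os07g13660, at 7.30, 7.45 and 7.36 before Al and 6.95, 6.82 and 6.88 after it, fell by 0.49 on the log2 scale (adjusted p = 0.0332), so the gene counts as a 2-fold fall on the shared one alone.

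A second cluster of chromosome 7, from 19006049 to 19060852, holds the 4 anthocyanidin glucosyltransferase genes LOC_Os07g31960, LOC_Os07g32010, LOC_Os07g32020 and LOC_Os07g32060, all tested and all with negative log2 changes (-0.61, -1.03, -1.02 and -0.65). The first 2 passed. LOC_Os07g32020, at 6.15, 6.65 and 6.01 before Al and 4.74, 5.93 and 5.09 after it, had adjusted p = 0.0509 and passed in 5 alternatives, among them without the second array after Al (log2 change -1.36). LOC_Os07g32060 overlapped between the groups and did not pass (adjusted p = 0.210). The chromosome 4 cluster, from 25986956 to 26043185, had all 3 genes higher in mean, with LOC_Os04g44250 and LOC_Os04g44240 passing and LOC_Os04g44354 not (log2 change 0.23, 95% interval -0.03 to 0.49).

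**Figure D3:**
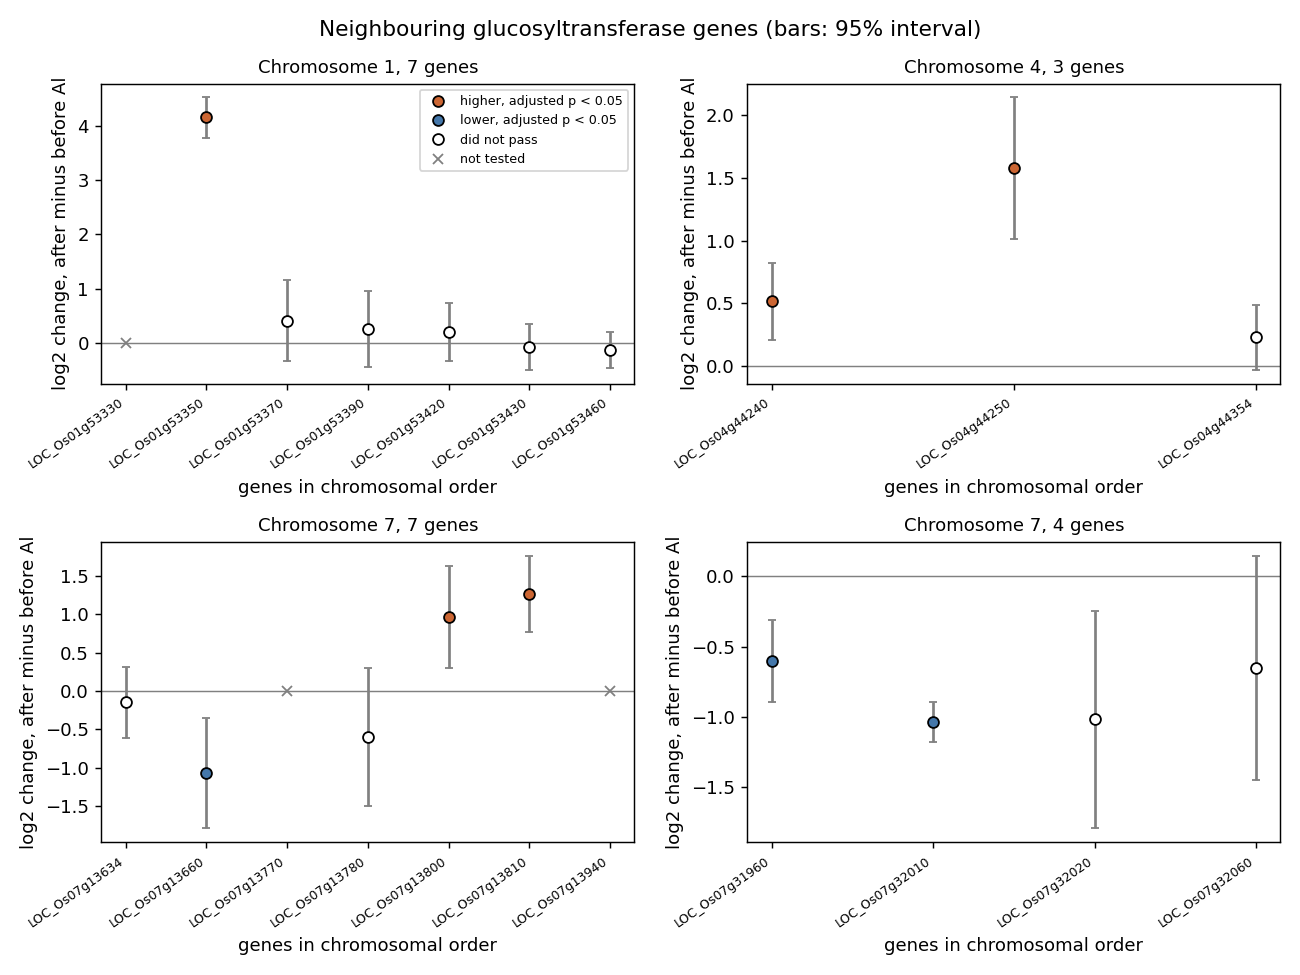
Log2 change, after minus before Al (vertical axis), of the genes in the 4 clusters with at least 3 tested genes, in chromosomal order along the horizontal axis. Bars are 95% intervals of the limma fit, orange and blue points passed the test as higher and lower, and crosses mark genes that were not tested and have no value. LOC_Os01g53350 stands at 4.16 while its tested neighbours lie between -0.14 and 0.41, and the 4 genes of the second chromosome 7 cluster lie at -0.61, -1.03, -1.02 and -0.65.

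Genes around glucosylation were counted in the same fit. UDP-glucose, the donor, is made by sucrose synthases and UDP-glucose pyrophosphorylases. Of 9 such genes 8 were tested, with a median log2 change of -0.27. Of these 8, 0 rose and 2 fell (0% and 25.0%, beside 14.3% and 15.9% of all tested probe sets). The sucrose synthase LOC_Os04g24430 had log2 signals of 7.18, 7.25 and 6.87 before Al and 4.82, 5.88 and 5.50 after it, a change of -1.70 ± 0.29, and the pyrophosphorylase LOC_Os02g02560 fell by 0.47. The pyrophosphorylase LOC_Os09g38030, at 14.26, 14.26 and 14.20 before Al and 14.09, 14.18 and 14.03 after it, had a change of -0.14 and did not pass. Of 7 genes that use UDP-glucose for other sugars, 6 were tested, of which 2 rose and 2 fell (33.3% each, beside the same 14.3% and 15.9%). The UDP-glucose 4-epimerase LOC_Os09g15420, which makes UDP-galactose, rose by 0.80 ± 0.05.

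Genes named for synthesis of flavonoid acceptors had more risers than fallers. Of 98 genes 50 were tested, 15 rose (30.0% of those tested, beside 14.3% of all tested probe sets) and 4 fell (8.0%, beside 15.9%). The median log2 change was 0.09. The list holds 37 genes described as dihydroflavonol-4-reductase, a name that in plants also covers related reductases. The dihydroflavonol-4-reductase LOC_Os02g08420 had log2 signals of 10.40, 10.39 and 10.45 before Al and 11.88, 11.94 and 11.82 after it, and rose by 1.47 ± 0.06. The chalcone--flavonone isomerase LOC_Os11g02440, which closes the ring of the first flavanone, rose by 1.41 ± 0.23, from 6.05, 5.88 and 5.51 to 6.92, 7.38 and 7.38. LOC_Os08g17500, of the same reductase type, was called present on no array before Al and on all 3 after it. Its group means differed 12.2-fold, but its signals before Al are not usable levels, so the size of the rise is uncertain. LOC_Os08g17500 met the filter through the after-Al group, where it is high. No count of this list without the filter is given here.

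Beta-glucosidases, which can remove glucose from stored conjugates, moved both ways. The word search took in 91 genes, of which 57 are glucan endo-1,3-beta-glucosidases, enzymes of callose rather than of glucosides. Without those, 27 of 34 genes were tested, 6 rose and 8 fell (22.2% and 29.6%, beside 14.3% and 15.9% of all tested probe sets), with a median log2 change of 0.07. LOC_Os01g59840, described as a cyanogenic beta-glucosidase, fell by 1.42 on the log2 scale, from 8.64, 8.25 and 8.25 to 7.08, 6.82 and 6.97, and LOC_Os09g33680, with the same product name, rose by 1.36 ± 0.24, from 6.10, 6.15 and 5.85 to 7.11, 7.91 and 7.15. Over all 91 genes, 69 were tested, 15 rose and 21 fell (21.7% and 30.4%). Of 3 genes for acylation of glucosides, 1 was tested, and LOC_Os02g57480, described as an anthocyanin 5-aromatic acyltransferase, fell by 0.69.

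**Figure D4:**
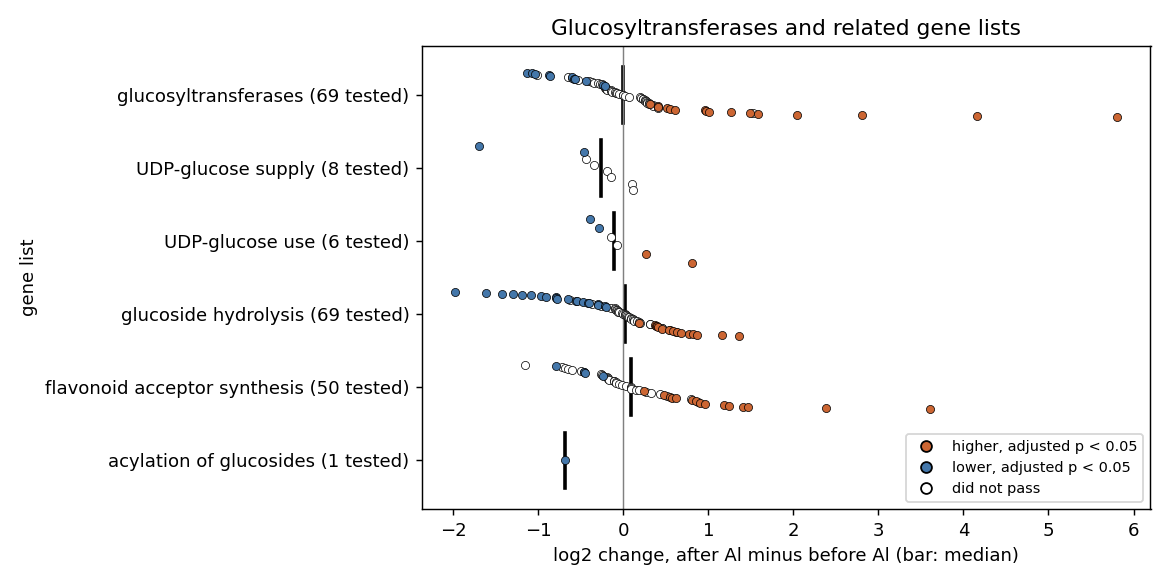
Log2 change, after minus before Al (horizontal axis), of each tested gene of the glucosyltransferases and of 5 lists of related genes (vertical axis, number tested in parentheses), with the median as a black bar. The glucoside hydrolysis row holds all 69 tested genes of the word search, of which 42 are glucan endo-1,3-beta-glucosidases. Orange and blue points passed the test as higher and lower and white points did not pass. The glucosyltransferase row reaches 5.81 while its median is -0.01, and the flavonoid acceptor row has 15 orange and 4 blue points.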

How the data were processed

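Total RNA (6 µg) of 3 samples before and 3 after Al was labelled and hybridised to Affymetrix arrays, per the labels. The authors' deposited tables give log2 signals, made with MAS5 per the submitters' processing notes, with each array scaled to a common level (trimmed means 497.0 to 497.2). No source used here gives the MAS5 version or target level. Per the file headers, the second deposited table adds a detection call per array (present, marginal or absent), a p-value and a fold change ratio. The deposited p-value and ratio were not used. The 2 tables hold the same signals (largest difference 0.0).

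Probe sets with 1 locus in the annotation (43020 of 57258) named genes, and the product text is that of the locus. Of 8 Entrez identifiers of members found in the reference table, 0 had a descriptive symbol, so locus identifiers are used. Sequences were not used here. The Os02g0755900 locus was left out by the rule.

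Two-sided tests used limma 3.58.1 (lmFit and trended eBayes, R 4.3.3) on the signals as deposited, over the 25283 probe sets present on at least 3 arrays, with Benjamini-Hochberg adjustment over all of them and a threshold of 0.05. Each fit had 4 residual degrees of freedom and 9.47 after sharing of the spread. Errors are SE of the fit or SD over 3 arrays, and the number of arrays limits the precision. The fit was tested on simulated data. Signals of different probe sets are not compared. Within a group arrays correlated at 0.987, and 0.951 to 0.956 between groups.

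Same-numbered repeats deviated from their group means with correlations of 0.07, 0.0011 and 0.09, so the numbers were not taken as pairs. These repeat numbers, also used for the replicate block, are those of the sample titles. The column headers number the after-Al arrays otherwise, and arrays that share a header number correlated at 0.02 and 0.007. Alternatives were the filter, quantile normalization, a pseudocount of 16, no intensity trend, unshared or averaged probe sets, the replicate block and each array left out. Named members were the 12 largest rises and falls of at least 2-fold with separate groups, the 5 of highest mean, up to 2 of smallest adjusted p per class and clusters of at least 3 tested members with a 4-fold change; the other members named were chosen after their values were seen. The members, lists and tests were chosen with earlier results of these data known.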

Additional observations from a re-analysis of the deposited data

How the results depend on the processing

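The counts of members higher, lower, and at least 2-fold higher or lower stayed within 1.5 times of 16, 11, 8 and 3 in every alternative run. With 1 array left out they were 12 to 15, 9 to 12, 7 to 8 and 2 to 3, and the median log2 change was -0.04 to 0.07. The median, -0.01 as reported, was -0.14 without the filter on dim probe sets, where 148 genes were counted. Without the glycoprotein, dolichyl, ceramide and sterol types, an alternative chosen after seeing the data, 15 of 63 tested genes rose and 8 fell. These are 23.8% and 12.7%, beside 14.3% and 15.9% of all tested probe sets. With the repeat number of the titles as a replicate block 17 rose and 12 fell (9 and 4 at least 2-fold, median -0.01). Shares of all probe sets are not given for the block fit or the fits with 1 array left out, so those counts are not compared with them. The labels do not state that equal numbers pair the arrays. Of the 27 genes that passed, 19 passed in every alternative that tested them, including 10 of the 11 with a 2-fold change. The exception was LOC_Os07g13660 (adjusted p 0.0062 to 0.105 over 14 alternatives). The other 7 were LOC_Os02g36840, LOC_Os02g37690, LOC_Os02g44510, LOC_Os03g55030, LOC_Os03g60700, LOC_Os04g44240 and LOC_Os07g13800, and the cause was not tested. LOC_Os01g53430, which did not pass, had a change of -0.07, and -0.15 to 0.047 with 1 array left out (0.047 without the second array before Al).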

Other observations

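LOC_Os09g34230, an indole-3-acetate glucosyltransferase type next to the riser LOC_Os09g34250, was counted as not tested because its brighter, shared probe set was called present on no array. Without the filter that probe set passed as lower (log2 change -2.83, limma adjusted p = 0.0068), on signals that are not usable levels. The unshared probe set of LOC_Os09g34230 had 3 present calls in the before-Al group and 2 in the other. Its log2 signals were 5.14, 5.16 and 4.44 before Al and 3.66, 4.93 and 3.35 after it. The groups overlapped, and the log2 change of -0.93 did not pass (limma adjusted p = 0.202). LOC_Os06g11720, a cytokinin O-glucosyltransferase 2 type with present calls on 2 arrays before Al and none after it, had log2 signals of 7.85, 8.50 and 8.15 before Al and 7.02, 7.22 and 7.13 after it. The signals after Al are not usable levels, and the gene passed in the fit without the filter alone (adjusted p = 0.00406). LOC_Os08g07200, also of the O-glucosyltransferase 2 type, did not pass on its brighter, shared probe set (log2 change 0.23, adjusted p = 0.116), while its unshared probe set rose by 0.42 (adjusted p = 0.0313). LOC_Os10g09990, of the O-glucosyltransferase 3 type, was called present on no array and passed as higher only without the filter (log2 change 1.20, limma adjusted p = 0.0347). These genes were chosen after their values were seen.

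LOC_Os03g55030, described as a glucosyl transferase, had log2 signals of 6.59, 6.60 and 6.85 before Al and 7.25, 7.17 and 7.27 after it. Its rise of 0.55 ± 0.16 passed (adjusted p = 0.0290), but the call was lost in 6 of 14 alternatives, with adjusted p from 0.00913 to 0.0854, among them the fit without the filter and those that left out array 1 or 2 of the before-Al group or any 1 of the after-Al group. The neighbouring LOC_Os03g55040, an indole-3-acetate glucosyltransferase type, had a log2 change of -0.09 with a 95% interval of -0.61 to 0.42.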
